A study of Mus musculus with 6 samples.

Results

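Troponin is the calcium switch of the thin filament, the actin cable of striated muscle. Its troponin C subunit binds calcium, its troponin I subunit holds back the interaction of actin with myosin until calcium is bound, and its troponin T subunit ties the complex to tropomyosin. In mammals each subunit comes from a small gene family whose members are used by slow muscle, fast muscle or heart, and the developing heart is known to replace slow skeletal troponin I by cardiac troponin I. The 8 mouse genes described here are the troponin I genes Tnni1 (slow skeletal), Tnni3 (cardiac) and Tnni2 (fast), the troponin T genes Tnnt1 (slow skeletal), Tnnt2 (cardiac) and Tnnt3 (fast), and the troponin C genes Tnnc1 (slow and cardiac) and Tnnc2 (fast). They were taken by name, 8 of 18193 genes measured, through 12 of the 45101 probe sets of the array that the platform annotation names to 1 of them alone. For Tnni2 and Tnnt2, which have 3 probe sets each, the one with the highest mean over the 6 arrays was used and the others served as a check.

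The arrays are one-colour Affymetrix arrays of total RNA from freshly isolated heart cells of C57BL/6J mice. There are 2 arrays each of adult cardiomyocytes (males, 8 weeks old, cells released by Langendorff perfusion, which washes the coronary vessels with enzyme), neonatal cardiomyocytes (postnatal day 1, both sexes, Percoll density separation) and neonatal cardiac fibroblasts (same age, sexes and separation). All cells were dissociated with trypsin and collagenase, and the labels also describe spreading of dissociated cells on a dish and a mitochondrial dye check that cardiomyocytes were absent. Age, sex and isolation differ together between the adult and neonatal groups and cannot be told apart, and no label tells if replicate arrays were made from different animals or isolations, so each p-value here reflects array-to-array spread that may be purely technical. None of the 6 arrays is of adult fibroblasts.

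Groups follow the source name. On both neonatal replicate 1 arrays the title names the other neonatal cell type, so marker genes were read first. The median of 9 cardiomyocyte markers was 13.64 and 13.63 log2 units on the adult cardiomyocyte arrays, 13.30 and 12.73 on the neonatal cardiomyocyte arrays, and 7.39 and 9.57 on the fibroblast arrays. The median of 10 fibroblast markers was 7.77 and 9.58 on the adult, 10.28 and 9.43 on the neonatal cardiomyocyte and 12.58 and 11.86 on the fibroblast arrays. That of 7 leukocyte markers was 7.15 and 8.77 on the adult, 7.88 and 5.39 on the neonatal cardiomyocyte and 12.34 and 9.55 on the fibroblast arrays. Cardiomyocyte markers were therefore lowest and fibroblast markers highest on the arrays grouped as fibroblasts, but fibroblast replicate 2 carried more cardiomyocyte marker signal than replicate 1. The median of 6 atrial markers was 7.02 and 12.44 on the adult, 13.10 and 13.47 on the neonatal cardiomyocyte and 7.29 and 9.76 on the fibroblast arrays. Adult replicate 2 thus carried more atrial marker signal than adult replicate 1. All 6 atrial markers had lower means in adult than in neonatal cardiomyocytes (median difference −2.79, 0 called). The part of atrial cells in the troponin differences was not tested. Medians of 7 endothelial markers ranged from 6.26 to 9.60 over the 6 arrays and those of 6 smooth muscle and pericyte markers from 7.40 to 9.84, both highest on adult replicate 2. The part of these other cells in the troponin values was not tested. Skeletal muscle markers (12 genes) had medians of only 4.32 to 4.99 on all 6 arrays, against array medians over all probe sets of 5.60 to 5.67. Values throughout are log2 RMA values, which carry no detection call, and a difference is always the difference of 2 group means of such values with its limma standard error (SE).

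Slow skeletal troponin I was the only troponin called between adult and neonatal cardiomyocytes. Tnni1 (probe set 1450813_a_at) measured 5.42 and 5.25 in adult cardiomyocytes, against 13.86 and 13.15 in neonatal cardiomyocytes. It measured 6.80 and 9.53 in neonatal fibroblasts. Every neonatal cardiomyocyte array lay above every fibroblast array, and every fibroblast array above both adult arrays. Tnni1 fell by 8.17 ± 0.89 log2 units in adult cardiomyocytes relative to neonatal ones, which is 288-fold in the measured values (limma, adjusted p = 0.0278). The adult values lie below the array medians and there is no detection call, so they are not shown to be above background and the size of the fold is uncertain. In these bulk samples fewer cells of a type and less RNA per cell cannot be told apart.

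Cardiac troponin I differed little between the cardiomyocyte groups. Tnni3 (1422536_at) measured 13.88 and 14.06 in adult cardiomyocytes, against 13.58 and 13.71 in neonatal cardiomyocytes. The 4 arrays lay within a narrow band although the groups did not overlap, and the difference was 0.32 (adjusted p = 0.909). These values lay near the top of the measured range, as the lowest of the 6 array maxima was 14.41. Compression of differences there was not measured. The fibroblast values of Tnni3 were 6.07 and 10.86. This gap of 4.79 between the fibroblast arrays was exceeded by only 2 of the 18193 genes, so each comparison of Tnni3 with fibroblasts rests on arrays far apart.

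The shift between the slow and the cardiac gene was also taken within each array, where Tnni1 minus Tnni3 was −8.46 and −8.81 in adult cardiomyocytes, against 0.28 and −0.57 in neonatal cardiomyocytes. The groups did not overlap, and their means differed by −8.49 (n = 2 each, exact permutation test, two-sided p = 0.333, the smallest p that 2 against 2 arrays allow). On the fibroblast arrays the same quantity was 0.73 and −1.32. Probe affinities cancel in the difference between groups but not in the value of an array, so only the difference is read, and its size is as uncertain as that of the low adult Tnni1 values.

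Fast troponin I stayed low. Tnni2 (1416889_at) measured 6.13 and 6.59 in adult cardiomyocytes, 6.38 and 5.95 in neonatal cardiomyocytes, and 5.80 and 5.01 in fibroblasts. On this probe set the cardiomyocyte groups overlapped, while both lay above the fibroblasts. The other 2 Tnni2 probe sets ranged from 3.74 to 5.95 and had the same order of group means. They differed by 0.42 and 0.59 between adult and neonatal cardiomyocytes, against 0.20 for the probe set used. On both of them the adult arrays lay above the neonatal cardiomyocyte arrays. On 1438608_at neonatal cardiomyocytes (4.15 and 3.74) overlapped fibroblasts (3.92 and 3.81).

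**Figure D1:**
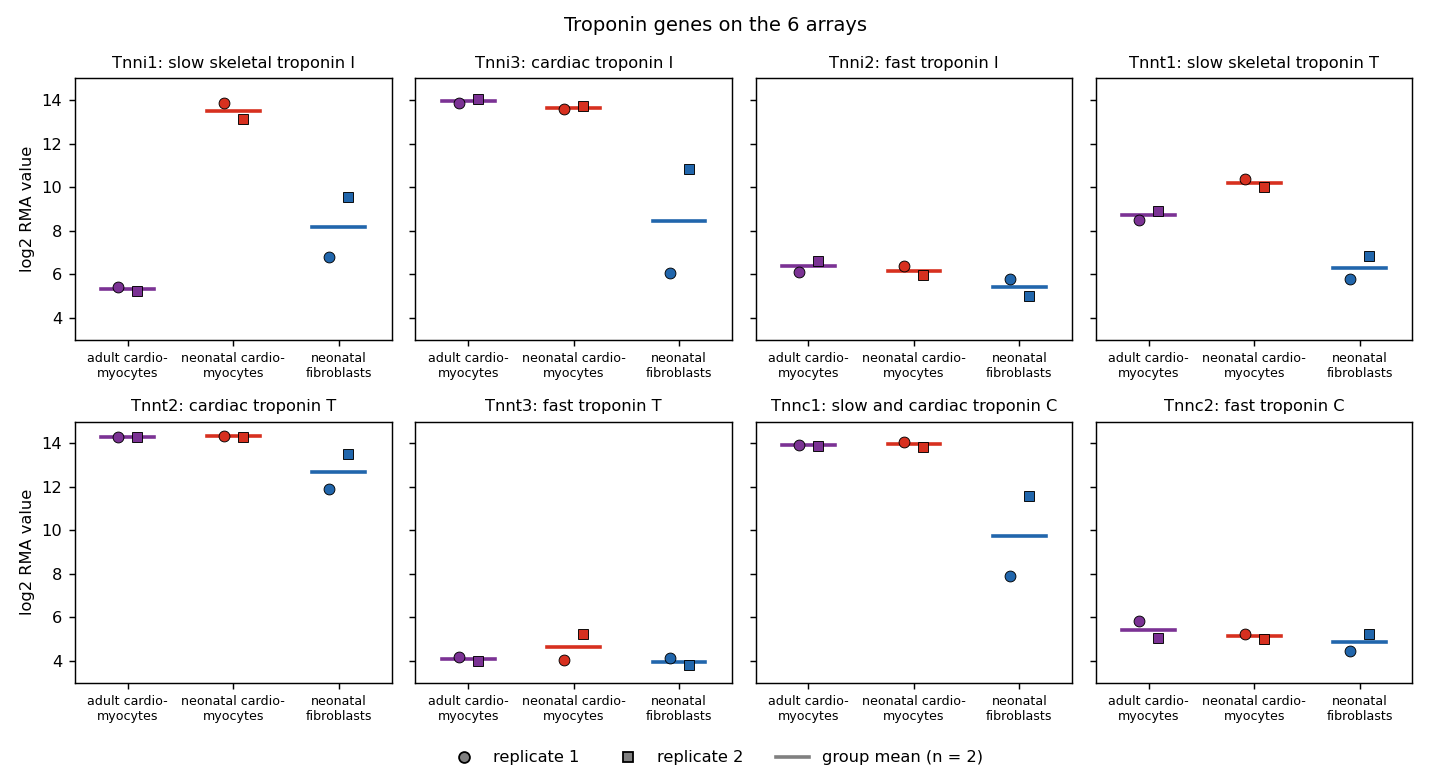
Log2 RMA value (vertical axis) of the 8 troponin genes in adult cardiomyocytes, neonatal cardiomyocytes and neonatal fibroblasts; circles are replicate 1, squares replicate 2 and lines the group means (n = 2). Tnni1 lies at 5.42 and 5.25 on the adult arrays and above 13 on both neonatal cardiomyocyte arrays, and the fibroblast arrays of Tnni3 and Tnnc1 lie far apart.

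Slow skeletal troponin T was also highest in neonatal cardiomyocytes, and it was the only troponin called against fibroblasts. Tnnt1 (1419606_a_at) measured 8.50 and 8.90 in adult cardiomyocytes, against 10.39 and 9.99 in neonatal cardiomyocytes. It measured 5.77 and 6.82 in fibroblasts. None of the 3 groups overlapped, with neonatal cardiomyocytes highest and fibroblasts lowest. Adult minus neonatal cardiomyocytes was −1.49 ± 0.40, which did not pass the test (adjusted p = 0.126). In each cardiomyocyte group the Tnnt1 values exceeded those of fibroblasts by more than the spread between arrays: the gene rose by 3.89 ± 0.40 in neonatal cardiomyocytes (14.9-fold, adjusted p = 0.0424) and by 2.41 ± 0.40 in adult cardiomyocytes (5.30-fold, adjusted p = 0.0186).

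Cardiac troponin T, the structural anchor of the complex in heart muscle, lay near the top of the measured range. Tnnt2 (1424967_x_at) measured 14.31 and 14.28 in adult cardiomyocytes, against 14.33 and 14.31 in neonatal cardiomyocytes, and 11.89 and 13.50 in fibroblasts. The cardiomyocyte groups differed by −0.03, and the lowest of the 6 array maxima was 14.41. Compression of differences near the top of the range was not measured.

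The 3 Tnnt2 probe sets did not give the same size of difference. Probe set 1418726_a_at measured 14.07 and 13.97 in adult cardiomyocytes, 14.16 and 14.13 in neonatal cardiomyocytes, and 11.85 and 13.28 in fibroblasts, close to the one used. Probe set 1440424_at was dimmer, at 10.81 and 9.04 in adult cardiomyocytes, 11.19 and 9.86 in neonatal cardiomyocytes and 6.94 and 8.23 in fibroblasts. Its neonatal cardiomyocyte mean exceeded its fibroblast mean by 2.95, against 1.63 for the probe set used. All 3 had the same order of group means, with neonatal cardiomyocytes highest. On the dimmer probe set replicate 1 was higher than replicate 2 by more than 1 log2 unit in both cardiomyocyte groups, so its adult and neonatal arrays overlapped.

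Fast troponin T was near the floor. Tnnt3 (1450118_a_at) measured 4.17 and 3.98 in adult cardiomyocytes, 4.02 and 5.22 in neonatal cardiomyocytes, and 4.12 and 3.81 in fibroblasts, with the lower quartile of all probe sets between 4.19 and 4.37. Only neonatal cardiomyocyte replicate 2 stood above the rest, and the groups overlapped.

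**Figure D2:**
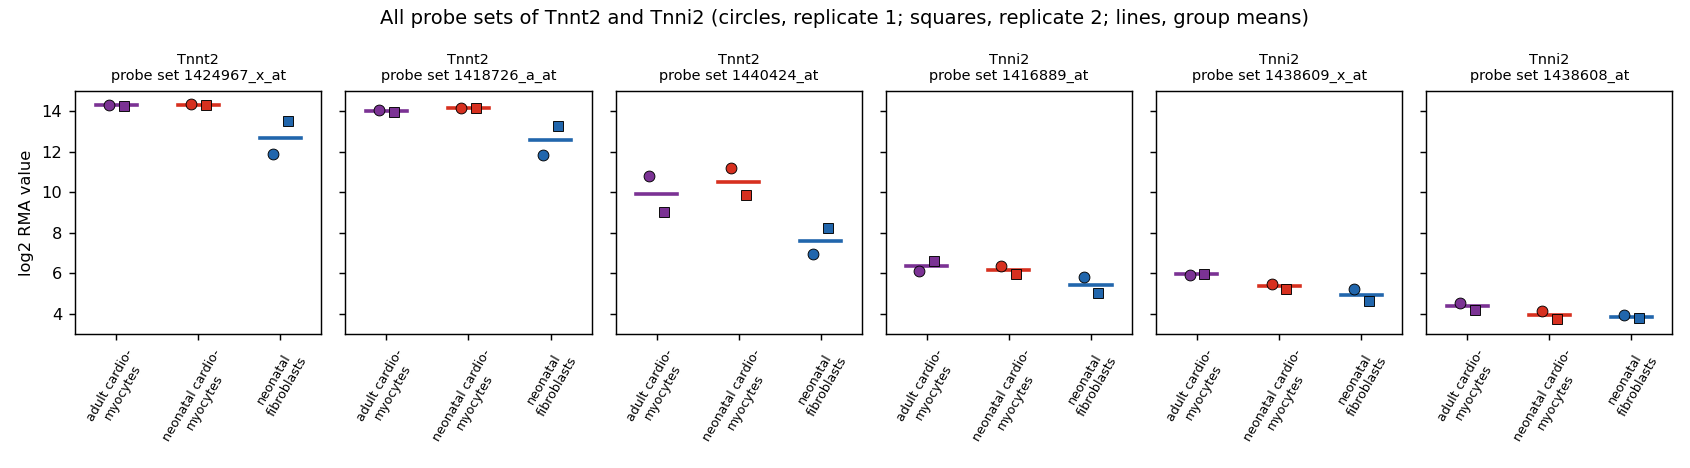
Log2 RMA value (vertical axis) of each probe set of Tnnt2 and Tnni2 in the 3 groups; circles are replicate 1, squares replicate 2 and lines the group means (n = 2). The first pair of Tnnt2 probe sets lies near 14 in cardiomyocytes, the dimmest one spreads over 9.04 to 11.19 there, and all Tnni2 probe sets lie below 7.

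Troponin C of slow muscle and heart, the calcium sensor, was also level in its measured values between the cardiomyocyte groups. Tnnc1 (1418370_at) measured 13.94 and 13.87 in adult cardiomyocytes, 14.07 and 13.86 in neonatal cardiomyocytes, and 7.90 and 11.56 in fibroblasts. The cardiomyocyte groups overlapped (difference −0.06, adjusted p = 0.979). Like those of Tnnt2, these values lay near the top of the measured range, where compression of differences was not measured. The gap of 3.66 between the fibroblast arrays was exceeded by 26 genes. Fast troponin C, Tnnc2 (1417464_at), measured 5.83 and 5.04 in adult cardiomyocytes, 5.26 and 5.03 in neonatal cardiomyocytes, and 4.45 and 5.25 in fibroblasts, and all 3 groups overlapped.

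In the RefSeq gene table (assembly GRCm38.p6) each troponin I gene has a troponin T gene close by. Tnni3 and Tnnt1 are direct neighbours on chromosome 7, Tnni1 and Tnnt2 on chromosome 1 have only Lad1 between them, and Tnni2 and Tnnt3 on chromosome 7 are separated by Lsp1 and Prr33. Tnnc1 is on chromosome 14 and Tnnc2 on chromosome 2. Neighbours had unequal differences: adult minus neonatal cardiomyocytes was −8.17 for Tnni1 against −0.03 for Tnnt2, and −1.49 for Tnnt1 against 0.32 for Tnni3. Tnni2 and Tnnt3 had differences of 0.20 and −0.55 with no call.

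The 250 bases before an annotated start site are shown for the genes whose adult and neonatal cardiomyocyte means differed most (Tnni1, Tnnt1) and for the most similar pair of the genes that were high in both (Tnni3, Tnnc1). They are from RefSeq (GRCm38.p6) and are written 5′ to 3′ on the gene's strand. Capitals mark matches on either strand to any of 6 motifs of muscle or general transcription factors, namely the E-box CANNTG, the GATA-factor core GATAA, the M-CAT element CATTCC, the TATA box TATAAA, the MEF2 box and the CArG box.
Tnni1 promoter, chr1:135799171-135799420, plus strand: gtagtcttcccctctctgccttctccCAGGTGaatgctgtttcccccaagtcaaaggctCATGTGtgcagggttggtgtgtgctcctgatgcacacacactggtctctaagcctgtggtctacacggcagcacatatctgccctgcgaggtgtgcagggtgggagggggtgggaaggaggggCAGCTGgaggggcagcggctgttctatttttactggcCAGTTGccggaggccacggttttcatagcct
Tnnt1 promoter, chr7:4515976-4516225, minus strand: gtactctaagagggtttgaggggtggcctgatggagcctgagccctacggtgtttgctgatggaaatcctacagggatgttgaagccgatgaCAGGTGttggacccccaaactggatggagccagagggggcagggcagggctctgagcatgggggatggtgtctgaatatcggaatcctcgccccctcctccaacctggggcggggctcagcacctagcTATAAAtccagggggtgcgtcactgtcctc
Tnni3 promoter, chr7:4522529-4522778, minus strand: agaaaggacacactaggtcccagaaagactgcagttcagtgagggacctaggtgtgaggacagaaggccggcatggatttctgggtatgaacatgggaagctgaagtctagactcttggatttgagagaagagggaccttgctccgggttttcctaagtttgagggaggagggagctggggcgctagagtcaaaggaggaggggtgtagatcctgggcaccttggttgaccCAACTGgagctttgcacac
Tnnc1 promoter, chr14:31208062-31208311, plus strand: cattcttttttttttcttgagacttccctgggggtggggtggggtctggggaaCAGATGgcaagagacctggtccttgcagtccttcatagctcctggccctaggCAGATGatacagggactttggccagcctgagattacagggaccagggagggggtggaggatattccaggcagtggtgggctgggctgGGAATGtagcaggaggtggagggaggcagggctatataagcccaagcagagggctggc

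Tnni1 has 2 windows in the table, for 2 start sites, of which the first is shown, and the other window holds 2 matches to CANNTG and none to the other motifs. In the windows shown, CANNTG occurred 4 times before Tnni1, 2 times before Tnnc1 and 1 time each before Tnnt1 and Tnni3, and 66.2% of the 32851 RefSeq windows of this length hold at least 1 match. TATAAA lay before Tnnt1 alone of the 4 genes (12.4% of all windows), and CATTCC, on the opposite strand, before Tnnc1 alone (12.6%). Only exact TATAAA was counted, so a near form such as tatataag in the Tnnc1 window is not marked. GATAA (22.6%), the MEF2 box (2.92%) and the CArG box (1.47%) had no match in these 4 windows. The marked matches do not overlap each other.

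The comparison of neonatal cardiomyocytes with neonatal fibroblasts asks which troponins mark the muscle cell in the newborn heart. All 8 means were higher in cardiomyocytes, and on 6 genes (all but Tnnt3 and Tnnc2) both cardiomyocyte arrays lay above both fibroblast arrays, where 45.4% of all genes do not overlap in one direction or the other. Only Tnnt1 rose (1 of 8, against 0.819% of all genes called in either direction), and 5 genes reached an unadjusted p under 0.05, against 16.3% of all genes. The median difference of the 8 was 2.76, against −0.02 over all genes. Tnni1 differed by 5.34 ± 0.89 (adjusted p = 0.0725), Tnni3 by 5.18 ± 1.496 (0.188), Tnnc1 by 4.23 ± 1.15 (0.168) and Tnnt2 by 1.63 ± 0.52 (0.225). The remaining members, Tnni2, Tnnt3 and Tnnc2, differed by 0.76, 0.66 and 0.29 (adjusted p between 0.384 and 0.823).

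These calls depended on single arrays. Without fibroblast replicate 2 the differences were 7.58 for Tnni3, 6.71 for Tnni1, 6.06 for Tnnc1, 4.42 for Tnnt1 and 2.43 for Tnnt2. Without fibroblast replicate 1 they were smaller, 2.79 for Tnni3, 3.97 for Tnni1, 3.37 for Tnnt1 and 0.82 for Tnnt2. Each of these fits keeps 1 fibroblast array, so the spread between fibroblast arrays does not enter its SE. For Tnni3 this SE was 0.23 in either fit, against 1.496 in the main fit. The Tnnt1 call ended without either adult array (adjusted p = 0.158), fibroblast replicate 1 (0.0867) or neonatal cardiomyocyte replicate 1 (0.167), or with the replicate number as a block (0.0578). With the grouping that the titles give its difference turned to −0.72 (adjusted p = 1).

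The fibroblast arrays were therefore set against the neonatal cardiomyocyte mean array by array. On fibroblast replicate 1 the 9 cardiomyocyte markers stood at 0.912% to 6.98% of the neonatal cardiomyocyte mean (median 1.47%). Tnni3 at 0.524% was below that range, Tnni1 at 0.958%, Tnnc1 at 1.496% and Tnnt1 at 4.67% were inside it, and Tnnt2 at 18.6% was above it. On fibroblast replicate 2 the markers stood at 4.89% to 29.3% (median 9.31%). Tnni1 at 6.37%, Tnnt1 at 9.67%, Tnni3 at 14.4% and Tnnc1 at 19.0% were inside that range, and Tnnt2 at 56.5% was again above it. The dimmer Tnnt2 probe set stood at 8.29% and 20.3% on the same arrays, above the marker range on replicate 1 and inside it on replicate 2. The fast genes, low in both cell types, were above the marker range on both arrays too. Tnni2 stood at 77.9% and 45.1%, Tnnt3 at 70.3% and 56.7%, and Tnnc2 at 62.0% and 107.6%. The part of cardiomyocytes, and of compression near the top of the range, in the troponin signal on the fibroblast arrays was not tested.

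**Figure D3:**
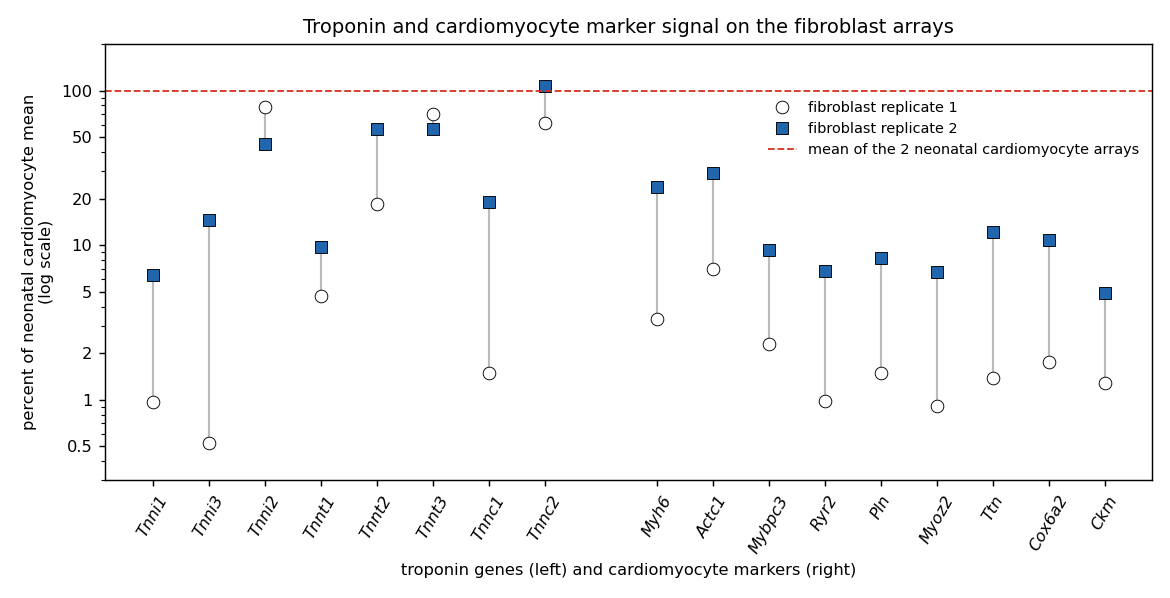
Signal on each fibroblast array in percent of the mean of the 2 neonatal cardiomyocyte arrays (vertical axis, log scale), computed from differences of log2 values, for the 8 troponin genes (left) and 9 cardiomyocyte markers (right); open circles are fibroblast replicate 1 and filled squares replicate 2. All 9 markers and Tnni1, Tnni3, Tnnt1, Tnnt2 and Tnnc1 are higher on replicate 2. Tnnt2 lies above the markers on both arrays, as do Tnni2, Tnnt3 and Tnnc2, whose values are low in both cell types.

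The comparison of adult with neonatal cardiomyocytes asks how the troponin set changes as the heart matures. Tnni1 alone of the 8 genes was called, 1 of 8 against 2.3% of all genes, and it fell. The groups did not overlap on 4 genes, Tnni3 higher and Tnni1, Tnnt1 and Tnnt2 lower in adult cells, against 57.7% of all genes. The median difference of the 8 genes was −0.04, against 0.09 over all genes. Besides Tnni1, Tnnt1 reached an unadjusted p under 0.05 (2 of 8, against 22.8% of all genes). For Tnni3, Tnnt2 and Tnnc1 the 95% intervals of the difference were −3.48 to 4.13, −1.36 to 1.30 and −2.99 to 2.87, because the fit over all 6 arrays takes in the spread of the fibroblast arrays. With only the 4 cardiomyocyte arrays in the fit they were −0.19 to 0.84, −0.50 to 0.44 and −0.57 to 0.46, and that of Tnni1 was −9.002 to −7.34 (adjusted p = 0.0371).

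The Tnni1 difference lay between −8.53 and −7.82 without any 1 array, but its call ended without neonatal cardiomyocyte replicate 1 (adjusted p = 0.0675), neonatal cardiomyocyte replicate 2 (0.0860), adult replicate 1 (0.193) or adult replicate 2 (0.162), with the titles' grouping (difference −4.64, adjusted p = 0.325), and without both arrays whose titles name the other cell type (0.124). Across all alternatives its adjusted p ranged between 0.0183 and 0.325, and the difference kept its sign in all of them.

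The comparison of adult cardiomyocytes with neonatal fibroblasts crosses both cell type and age. Tnnt1 rose, 1 of 8 called against 21% of all genes. The arrays did not overlap for 6 genes, with Tnni2, Tnni3, Tnnt1, Tnnt2 and Tnnc1 higher and Tnni1 lower in adult cardiomyocytes, against 68% of all genes. Tnni3 differed by 5.51 ± 1.496 (adjusted p = 0.0581), Tnnc1 by 4.17 ± 1.15 (0.0603), Tnnt2 by 1.60 ± 0.52 (0.0908) and Tnni1 by −2.83 ± 0.89 (0.0835). At an unadjusted p under 0.05, 6 of the 8 passed, against 37% of all genes. The median was 1.27, against 0.09 over all genes. With the replicate number as a block Tnni3 was called too (adjusted p = 0.0439). The troponin genes called changed when either fibroblast array was left out, and Tnnt1 was lost without fibroblast replicate 1. Each such fit keeps 1 fibroblast array, so the spread between fibroblast arrays does not enter its p-values. The share of all genes called in each of these fits is not given here. Their troponin calls cannot be set against it and are not read as a result about troponins. Tnnt1 was also lost without adult replicate 1 (0.0983) or adult replicate 2 (0.0949), where 0 troponin genes were called and limma passed 1 at unadjusted p under 0.05, and with the titles' grouping (0.981). Over all 16 alternatives Tnnt1 was called in 11, so the losses named here are not all of them. This comparison shares its fibroblast arrays and its adult arrays with the others.

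**Figure D4:**
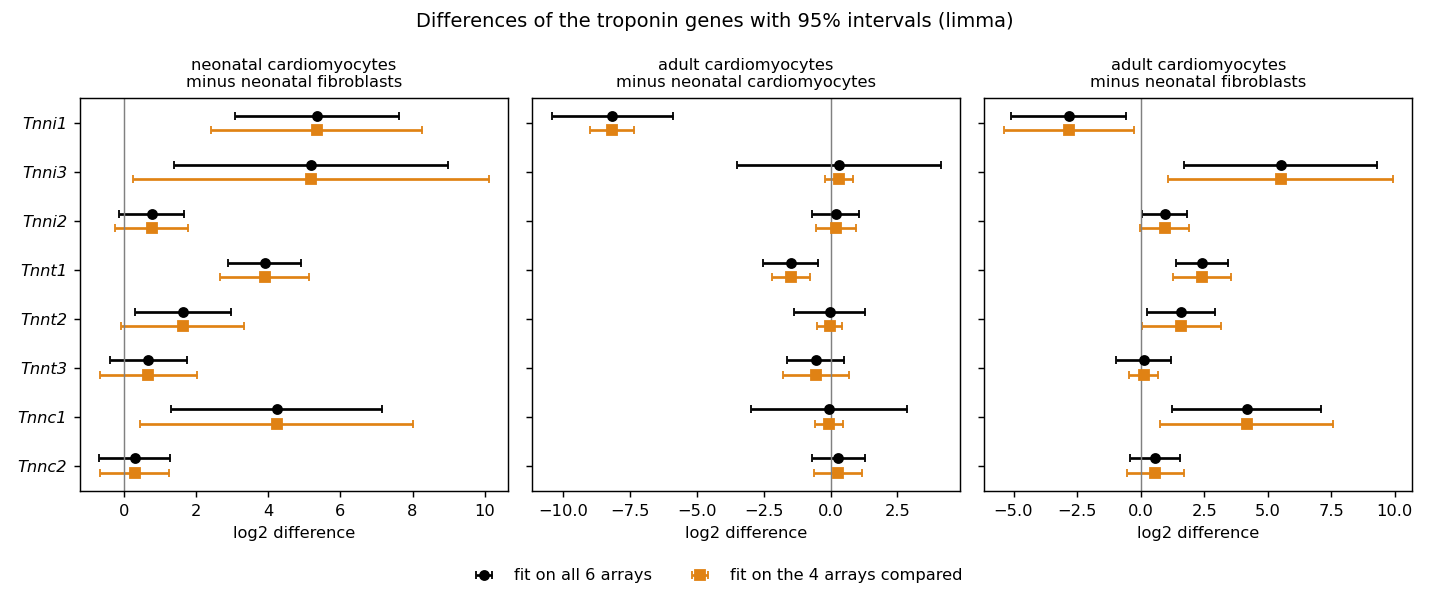
Log2 difference (horizontal axis) of each troponin gene in the 3 comparisons, with 95% intervals from limma; black circles are the fit on all 6 arrays and orange squares the fit on the 4 arrays of the groups compared. In the middle panel the intervals of Tnni3, Tnnt2 and Tnnc1 narrow when the fibroblast arrays are left out of the fit, and Tnni1 lies at −8.17.

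The other gene lists are read against the shares of all genes called, 0.819% between the neonatal cell types, 2.3% between adult and neonatal cardiomyocytes and 21% between adult cardiomyocytes and fibroblasts, and at an unadjusted p under 0.05, 16.3%, 22.8% and 37%. Of 17 other thin and thick filament genes measured, 2 rose in neonatal cardiomyocytes relative to fibroblasts, the pointed-end cap gene Tmod1 (4.75) and the actin nucleator gene Lmod3 (4.75), with a median difference of 2.81. In adult relative to neonatal cardiomyocytes only Tmod4, a tropomodulin of skeletal muscle, rose (4.52, median 0.16). In adult cardiomyocytes relative to fibroblasts 11 rose and 2 fell of the 17, against 21% of all genes called (median 3.17): the increases were led by Lmod2 (6.36), Lmod3 (5.92), the skeletal actin gene Acta1 (5.20) and the Z-disc linker gene Nebl (5.11), and the tropomyosins Tpm2 (−2.85) and Tpm4 (−2.71), named after their values were seen, fell.

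Genes of kinases, phosphatases and calcium proteins that act on or beside troponin had 0 calls of 15 in either neonatal comparison, in which limma passed 9 (cardiomyocytes against fibroblasts) and 1 (adult against neonatal cardiomyocytes) at unadjusted p under 0.05, against 16.3% and 22.8% of all genes. With 0.819% and 2.3% of all genes called, a list of this size is not set apart by 0 calls. The largest differences were in the calcium release channel gene Ryr2 (5.27, adjusted p = 0.0759) and in Pln, the inhibitor of the calcium pump (4.84, 0.0761) between the neonatal cell types, and in the protein kinase C gene Prkcd (−1.06, 0.198) and Tnni3k, a cardiac kinase named for binding troponin I (1.02, 0.285), between adult and neonatal cardiomyocytes. In adult cardiomyocytes relative to fibroblasts 6 rose, led by Ryr2 (6.12), Pln (5.46), the calcium store gene Casq2 (4.87) and Tnni3k (4.80), and Prkcd fell by 2.19, 7 of 15 called against 21% of all genes. The medians of the list were 0.58, 0.13 and 0.77 in the order of comparisons given.

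Of 18 transcription and splicing regulators known to act on troponin genes, 0 were called between the neonatal cell types or between adult and neonatal cardiomyocytes, where limma passed 8 and 2 at unadjusted p under 0.05, against 16.3% and 22.8% of all genes. The muscle splicing factor genes Rbm24 (5.03, adjusted p = 0.0647) and Rbm20 (4.22, 0.0578) had the largest differences between the neonatal cell types, and Rbfox1 (3.10, 0.0955) and Rbfox2 (−0.89, 0.193), also splicing factors, between adult and neonatal cardiomyocytes. In adult cardiomyocytes relative to fibroblasts 6 of 18 rose, against 21% of all genes called, led by Rbm24 (5.25), Rbm20 (4.02), and the cardiac transcription factors Nkx2-5 (3.09) and Tbx5 (1.67). Medians were 0.87, −0.14 and 0.70.

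Fast fibre genes were examined because 3 members belong to fast muscle. Of 12 genes, Casq1, the fast-muscle calsequestrin, and Myh8, the perinatal myosin heavy chain, rose in neonatal cardiomyocytes relative to fibroblasts (4.75 and 2.26) and fell in adult relative to neonatal cardiomyocytes (−3.84 and −2.22), the pair being the only calls of the list in both comparisons (2 of 12 in each, against 0.819% and 2.3% of all genes). Casq1 measured 7.25 and 6.71 in adult cardiomyocytes, against 10.56 and 11.08 in neonatal cardiomyocytes. Myh8 measured 4.08 and 4.10 in adult cardiomyocytes, against 6.42 and 6.21 in neonatal cardiomyocytes. In adult cardiomyocytes relative to fibroblasts 4 of 12 rose, against 21% of all genes called, namely the muscle enolase gene Eno3 (4.76), Mybpc2 (3.17) and the myosin light chain genes Myl1 (2.92) and Mylpf (0.90). Medians were 0.78, 0.15 and 0.48.

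Slow fibre and cardiac genes (10 measured) had 0 calls between the neonatal cell types, with 6 at unadjusted p under 0.05 in limma (16.3% of all genes) and a median of 3.35, and 0 calls between adult and neonatal cardiomyocytes, with 0 at unadjusted p under 0.05 (22.8% of all genes) and a median of 0.10. Myh7, the slow myosin heavy chain, measured 9.11 and 8.76 in adult cardiomyocytes, against 14.41 and 9.70 in neonatal cardiomyocytes, a gap of over 4 log2 units between the neonatal arrays that Tnni1 (13.86 and 13.15) did not have. Its difference was −3.12 ± 1.57 (adjusted p = 0.303), and the next largest was that of Fhl1 (−1.17, adjusted p = 0.251). Between the neonatal cell types the largest differences were those of Myh7 (6.67, adjusted p = 0.129) and Csrp3 (5.84, 0.0713). In adult cardiomyocytes relative to fibroblasts 4 of 10 rose, against 21% of all genes called, the muscle LIM protein gene Csrp3 (6.04), the ventricular light chain gene Myl3 (4.92), Casq2 (4.87) and the calcium pump gene Atp2a2 (2.98), with a median of 3.26.

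The calls in these lists also depended on single arrays. The 4 genes called between the neonatal cell types (Tmod1, Lmod3, Casq1 and Myh8) were all lost when either adult array, neonatal cardiomyocyte replicate 1 or fibroblast replicate 1 was left out and with the replicate number as a block, and Lmod3 and Casq1 also without neonatal cardiomyocyte replicate 2. The 3 called between adult and neonatal cardiomyocytes (Tmod4, Casq1 and Myh8) were all lost without neonatal cardiomyocyte replicate 2 or either adult array, and Casq1 also without neonatal cardiomyocyte replicate 1. Of the 31 different genes called between adult cardiomyocytes and fibroblasts, 0 passed without adult replicate 1, 3 without adult replicate 2, 20 without fibroblast replicate 1 and 23 without fibroblast replicate 2.

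The genes most like each troponin were found by the root mean square difference over the 6 arrays after each gene was centred on its own mean, for the 5 members whose group means span at least 1 log2 unit. The nearest to Tnni1 were Bex1 (1.18 log2 units), the imprinted gene Mest (1.33) and Bex4 (1.35). Bex1 measured 7.23 and 6.35 in adult cardiomyocytes, against 12.96 and 11.53 in neonatal cardiomyocytes, and 6.20 and 9.30 in fibroblasts. Like Tnni1 it was highest on the neonatal cardiomyocyte arrays and higher on fibroblast replicate 2 than on replicate 1. Unlike Tnni1, it was lower on fibroblast replicate 1 than on both adult arrays. The nearest to Tnni3 were Myl3 (0.37), Srl (0.41), which encodes the calcium-binding protein sarcalumenin, and Smpx (0.47). The nearest to Tnnc1 were the ventricular light chain gene Myl2 (0.16), the M-band gene Myom1 (0.21) and Mlf1 (0.26). Tnnt1 was nearest to the water channel gene Aqp4 (0.33), Ppm1e (0.38) and Tmem71 (0.42), and Tnnt2 to Khdrbs3 (0.17), Adcy6 (0.21) and Cox20 (0.22). Among the troponins, Tnni3 and Tnnc1 differed by 0.66 and Tnni1 and Tnni3 by 4.02, the largest of the 28 pairs. These distances describe 6 arrays in 3 groups, and no test was made of them.

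**Figure D5:**
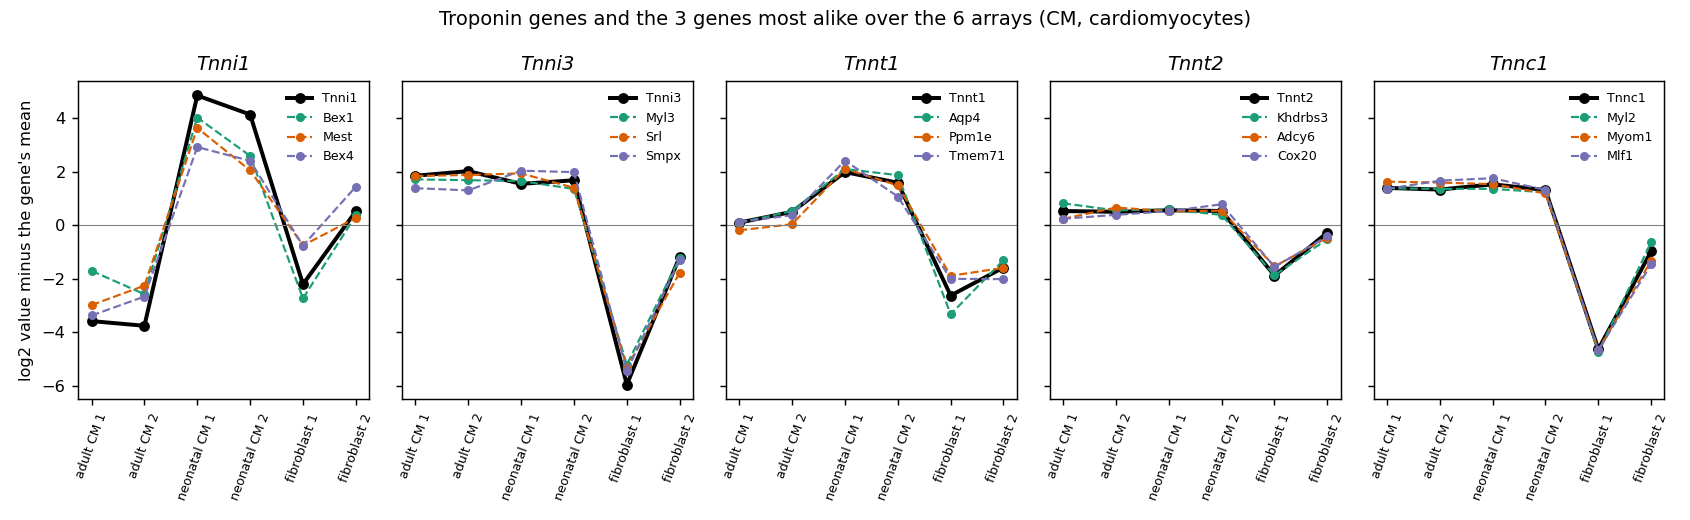
Log2 value minus the gene's own mean (vertical axis) on the 6 arrays for the 5 troponin genes whose group means span at least 1 log2 unit (black) and the 3 genes most alike (dashed). Tnni1 peaks on the neonatal cardiomyocyte arrays and is lowest on the adult arrays, while Tnni3 and Tnnc1 are level over the 4 cardiomyocyte arrays and lowest on fibroblast replicate 1.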

How the data were processed

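The deposited table holds log2 RMA values for 45101 probe sets on 6 one-colour arrays. RMA is named in the submitters' processing notes, while a version, and if all arrays went through it jointly, are not given in the sources used here. The authors' normalization was kept. Signal depth has no count here, and the number of arrays limits the precision. Of the probe sets, 34945 were named to 1 gene and 932 to several by GEO's platform annotation, and 64 are controls. The probe set with the highest mean stood for each of 18193 genes. The 8 troponin symbols all matched the RefSeq gene table. Means of the 3 groups were modelled over all 6 arrays (limma 3.58.1 under R 4.3.3, lmFit then eBayes, 3 residual and 2.18 prior degrees of freedom), and the fit was tested on simulated data. The simulated noise was independent between genes and of the same spread in all groups. Shared array effects, cell mixture and unequal spread of groups were therefore not covered. The 3 comparisons were two-sided, with Benjamini-Hochberg adjustment over all genes and a threshold of 0.05. The words rose, fell and called are kept for genes past it. The members, the 5 gene lists and the 7 marker lists were chosen with earlier results of these data known. From each gene list up to 4 called genes with the largest differences were named, or the 2 largest where none was called. Alternatives were the titles' grouping, leaving out arrays, a replicate block, other probe set rules, other scalings, a filter on dim genes, a variance trend and fits on 4 arrays. No build is named for the arrays in the labels or notes.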

Additional observations from a re-analysis of the deposited data

How the results depend on the processing

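With 2 arrays a group and no detection calls, the low values of Tnni2, Tnnt3, Tnnc2 and, in adult cells, Tnni1 and the high values of Tnnt2 are the least informative. The cardiomyocyte values of Tnni3 and Tnnc1 also lay near the top of the measured range. Between neonatal cardiomyocytes and fibroblasts the count of troponin genes called, 1 of 8, was 0 with the titles' grouping, without both arrays whose titles name the other cell type, with the probe set of largest variance and with only the 4 arrays compared, 2 of the 7 troponin genes left among 12877 genes by the dim-gene filter, and 0 to 5 without 1 array. All genes called there, 149, numbered 0 under those first 4 settings, 59 with the mean of probe sets, 299 with the filter, 248 with a variance trend, and 0 to 437 without 1 array. Between adult and neonatal cardiomyocytes the troponin count of 1 was 0 with the titles' grouping and without both arrays, and 0 to 1 without 1 array, and the 418 genes were 114, 0, 164 with 4 arrays, and 0 to 164 without 1 array. Between adult cardiomyocytes and fibroblasts the troponin count of 1 was 0 with the titles' grouping, 3 without both arrays, with the filter and with the trend, and 0 to 4 without 1 array, and the 3829 genes were 137, 717, and 0 to 3823 without 1 array. The causes were not tested. A fit without 1 array leaves 1 array in its group, so the spread of that group does not enter its p-values. The counts of such fits are therefore unlike those of the main fit. For the filter and the trend, the count of all genes between adult cardiomyocytes and fibroblasts is not given here. The troponin count of 3 there cannot be set against it.

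With the titles' grouping the difference of neonatal cardiomyocytes minus fibroblasts turned to −1.72 for Tnni1, −2.33 for Tnni3, −0.72 for Tnnt1, −0.82 for Tnnt2, −1.94 for Tnnc1, −0.51 for Tnnc2, −0.60 for Tmod1, −0.79 for Lmod3, −0.12 for Myh8 and −0.39 for Casq1. That of adult minus neonatal cardiomyocytes turned to 0.82 for Tnnt1, 1.19 for Tnnt2 and 3.03 for Tnnc1, and that of adult cardiomyocytes minus fibroblasts to −0.028 for Myl1. Small differences also turned. Without both arrays whose titles name the other cell type, Tnnc2 (neonatal cardiomyocytes minus fibroblasts) turned to −0.22. In the same fit Tnnc1 (adult minus neonatal cardiomyocytes) turned to 0.048. With quantile normalization, Tnnt3 (adult cardiomyocytes minus fibroblasts) turned to −0.021. Without 1 array, adult minus neonatal cardiomyocytes spanned −0.038 to 0.43 for Tnni2, −1.15 to 0.050 for Tnnt3, −0.17 to 0.048 for Tnnc1 and −0.10 to 0.68 for Tnnc2, neonatal cardiomyocytes minus fibroblasts −0.11 to 0.69 for Tnnc2, and adult cardiomyocytes minus fibroblasts −0.041 to 0.27 for Tnnt3. The troponin I shift of −8.49 lay between −8.92 and −8.07 without any 1 of the 4 cardiomyocyte arrays.

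No label ties same-numbered arrays to a shared animal, batch or day. Their deviations from the group means correlated at 0.183, 0.268 and 0.207 over genes in the 3 pairs of groups, with only 2 numbers to go by. The source of these correlations was not tested. With a replicate block the troponin genes called were 0 for neonatal cardiomyocytes against fibroblasts, 1 for adult against neonatal cardiomyocytes and 2 for adult cardiomyocytes against fibroblasts, and all genes called were 0, 607 and 4811.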
